A study of Rattus norvegicus with 12 samples.

Results

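The subject is 365 pairs of microarray probes that share a run of letters on opposite strands. The array held 57102 probes whose names start with rclstr, a prefix the labels do not explain, among 60148 probes that are not controls. A pair was formed where at least 20 consecutive bases of one 60-base probe were the reverse complement of bases in another rclstr probe. This gave 442 pairs from 772 probes. A pair was kept where both probes were well above background, by the scanner software's own test, on all 4 arrays of at least 1 group, which left 365 pairs from 621 probes. In 341 of these, both probes were well above background on all 12 arrays. Of the 77 pairs not kept, 57 had 1 probe above background throughout a group and 20 had neither.

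The study measured total RNA from rat brain on one-colour arrays in 3 groups of 4 samples. Control samples are labelled normal, model samples come from rats in which embolization blocked the middle cerebral artery, a model of stroke, taken at 7 days, and BHD samples from such rats given Buyang Huanwu Decoction, a herbal medicine, also at 7 days. The series' design text says instead that ischaemia was produced in all groups, and that conflict could not be settled. The labels give male in the field for strain, no strain, age or dose, and hippocampus in the descriptions of samples whose tissue is given as brain. They call most samples biological replicates. The array gives its probes no gene names, so the tissue was not checked against marker genes. Control arrays lay on row 1 of slide 1, model arrays on row 2 of slide 1 and BHD arrays on row 1 of slide 2, so group cannot be told apart from row or slide in any comparison. Between 73.18% and 77.27% of probes were well above background on an array, and no spot was saturated.

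Both strands of one piece of genome can be transcribed. Such natural antisense transcripts often overlap a partner gene head to head, at its promoter, or tail to tail, at its 3' end, and in brain many long noncoding RNAs lie antisense to genes. A different source of complementary letters is a repeat: short interspersed elements are copied into transcripts in either orientation, so unrelated RNAs can carry opposite strands of one element. Per the labels' protocol the labelled material is the first cDNA strand, so a probe has the same letters as the RNA it reports. The probes of a pair thus report opposite strands of the shared run.

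Some sequences show what a pair is. Letters are 5' to 3', and capitals mark the run that is the reverse complement of a run in the partner. The first pair is complementary over all 60 bases, and its strands changed order between groups:

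rclstr_40865_542_4: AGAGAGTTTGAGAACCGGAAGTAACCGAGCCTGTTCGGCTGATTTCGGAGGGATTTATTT
rclstr_7494_456_5: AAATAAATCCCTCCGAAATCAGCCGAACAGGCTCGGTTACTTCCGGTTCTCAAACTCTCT

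The next pairs overlap at the 3' ends of both probes and carry the largest called fall and the 1 called rise of the strand ratio in BHD against model:

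rclstr_11789_93_3: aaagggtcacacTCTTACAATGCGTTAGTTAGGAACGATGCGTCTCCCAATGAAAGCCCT
rclstr_48164_661_4: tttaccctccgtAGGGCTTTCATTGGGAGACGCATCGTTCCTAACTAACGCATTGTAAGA
rclstr_51749_393_13: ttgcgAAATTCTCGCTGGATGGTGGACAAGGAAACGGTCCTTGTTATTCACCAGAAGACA
rclstr_54430_205_6: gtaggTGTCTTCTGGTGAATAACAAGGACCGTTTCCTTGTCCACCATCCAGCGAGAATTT

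These pairs overlap at the 5' ends of both probes. In the first, 1 strand rose against the other in BHD, and in the second both strands fell:

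rclstr_44619_492_10: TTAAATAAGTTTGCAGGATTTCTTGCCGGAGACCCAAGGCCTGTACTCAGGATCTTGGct
rclstr_17887_549_20: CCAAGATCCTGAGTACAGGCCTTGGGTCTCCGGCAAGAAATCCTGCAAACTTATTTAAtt
rclstr_3501_6180_6: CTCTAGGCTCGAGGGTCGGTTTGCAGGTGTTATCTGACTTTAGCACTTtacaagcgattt
rclstr_7369_489_10: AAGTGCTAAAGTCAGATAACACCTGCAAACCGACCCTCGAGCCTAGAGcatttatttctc

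The last pairs share a run inside the probes, with unrelated letters beside it. The first of them is a repeat pair, whose run reads like the start of the rodent B2 short interspersed element, and the second, with a run of 20 bases, stands just inside the rule:

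rclstr_66662_40_2541: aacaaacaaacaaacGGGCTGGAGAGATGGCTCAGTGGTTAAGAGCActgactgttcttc
rclstr_61130_301_77: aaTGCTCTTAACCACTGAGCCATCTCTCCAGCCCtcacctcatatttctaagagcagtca
rclstr_48605_264_14: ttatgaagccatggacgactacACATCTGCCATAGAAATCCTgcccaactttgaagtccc
rclstr_116_1975_25: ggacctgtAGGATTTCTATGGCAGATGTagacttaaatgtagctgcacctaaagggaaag

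The pairs fell into kinds by their letters alone. The shared run had a median of 42 bases and reached 60 bases, the whole probe, in 36 pairs. In 114 pairs the run ended at the 3' ends of both probes and in 66 at the 5' ends, so the probes could be offset windows on one stretch. In the other 149 pairs letters beside the run did not match, so their probes may report different RNAs that share the run. Below, the strands of a pair means its 2 probes, in these pairs too. At the edge of the rule, 24 kept pairs shared exactly 20 bases, and 45 pairs with a longest run of 19 bases were just outside. A pair was called repeat-like where its run lay in at least 2 of 33469 promoter windows of the RefSeq table for GRCr8 (250 bases before to 50 after each gene start), where its probes overlapped more than 1 partner, or where the run was a simple repeat. There were 141 repeat-like pairs from 173 probes. A pair was called single-stretch where it had none of these marks and the run ended at probe ends, which gave 191 pairs from 382 probes. The remaining 33 pairs had an internal run and no mark of a repeat. The repeat-like run found most widely lay in 108 windows. These marks do not establish a repeat. The full complements rclstr_37146_524_16 and rclstr_46398_217_8 lay in 1 window and count as repeat-like because rclstr_52152_199_1008 overlaps both. Windows of different genes can also cover one place, as those of Cenpq and Mmut do at rclstr_33482_43_6 and rclstr_9503_297_4.

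The level ratio of the strands was usually large and was stable. A probe's level here is the log2 of its processed signal minus the 75th percentile of its array. The strand difference is the level of the probe that was brighter over the 12 arrays minus that of its partner. It also holds the unequal binding of the probes, so it is a ratio of signals, not of RNA amounts. Over the 365 pairs its median was 2.99, a 7.96-fold ratio of signals, with quartiles of 1.32 and 4.95. The difference was under 1 in 70 pairs, 3 or more in 182 and 6 or more in 58. For 1050 rclstr pairs that share at least 20 bases on the same strand and passed the same filter, the median was 0.39, and 76.9% were under 1 against 19.2% of the antisense pairs. The spread of the difference between arrays of a group had a median SD of 0.17. On single arrays the median difference lay between 2.91 and 3.06, so no group stood apart in it.

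The brighter strand was not regularly the one with more G. The 36 full complements have equal GC content in both probes, and their median difference was 3.31, with a highest of 8.66. Per the labels' protocol, dCTP was lowered beside the Cy3 label, and cytosine pairs with guanine, so G was counted too. The brighter probe had more G than its partner in 162 pairs, fewer in 179 and as many in 24. Across pairs, Spearman's rho of the difference in G count with the strand difference was 0.015 (365 pairs, which share arrays and in part probes). It was 0.075 in the 36 full complements, and 0.113 for the difference in GC percent over all pairs. Whether labelling shapes the strand difference was not tested. The run AATAAA, the letters of the common polyadenylation signal, stood in 6 brighter and 4 dimmer probes of the 191 single-stretch pairs, or 3.14% and 2.09%, beside 1.85% of all rclstr probes tested. Its reverse complement TTTATT stood in 3 brighter and 9 dimmer probes, or 1.57% and 4.71%, beside 1.77%. The letters were searched as written on each probe, and a match is a description only.

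Repeat-like pairs were brighter on both strands. The brighter probes had a median level of 5.83 and the dimmer ones 2.53, against 1.32 and -2.23 in single-stretch pairs. The median strand difference was 2.80 in repeat-like and 3.09 in single-stretch pairs, with 32 and 23 pairs at 6 or more. Linking every probe to its partners gave 11 families of more than 3 probes, with 86 pairs. With overlaps on either strand linked, as for the repeat-like mark, the largest family had 29 probes, so these 11 families were linked more narrowly. In 74 of the 86 pairs the brighter probe was on the strand of the family's brightest probe, and in 7 families the levels of the strands did not overlap. Orienting a family by its brightest probe favours that strand, so these counts are a description.

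In the largest of the 11 families, with 22 probes and 29 pairs, the probes of one strand were far above those of the other. Its 16 probes on one strand, whose letters read like the body of the B2 element in its own orientation, had mean levels of 8.25 to 9.83. The 6 probes on the other strand lay between -4.57 and 4.43. The largest strand difference among pairs measured on all 12 arrays was also here. It was that of rclstr_65943_130_22332 and rclstr_48681_500_19, which share 20 bases, and it lay between 12.56 and 13.20 on the 12 arrays. Letters beside that run did not match. A link needs only 20 shared bases, so probes of the family may report different RNAs. The pair with the highest mean level was the B2 pair printed earlier, rclstr_66662_40_2541 with rclstr_61130_301_77. Its probes had levels of 8.26 to 8.61 and 6.56 to 7.00, and its difference lay between 1.54 and 1.83 on the 12 arrays. No call was made on these strand differences in any comparison.

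Among the full complements, rclstr_52934_483_16 and rclstr_32265_1243_14 had the highest mean level. Their difference was 3.42, 3.44, 3.29 and 3.40 in control, 3.27, 3.17, 3.40 and 3.26 in model, and 3.25, 3.12, 3.20 and 3.28 in BHD. The BHD arrays lay below the control arrays without overlap (change -0.18 ± 0.05, SE, n = 4 against 4), and this was not called (limma, adjusted p = 0.124). Over the 12 arrays the first probe was 9.79 times as bright as the second, by signal.

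The order of the strands was the same on all 12 arrays in 337 of the 365 pairs, or 92.3%. The 28 pairs in which it differed had mean differences of at most 0.77. The group means differed in sign in 11 pairs, and in 3 of these the strand difference was called in a comparison.

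Within groups, the strands of a pair tended to move together from array to array, less closely than probes of one strand. Pearson's r of the 2 levels, after removing group means, had a median of 0.44 over the 365 pairs (12 arrays each, quartiles 0.02 and 0.75). It was above 0 in 281 pairs, at least 0.5 in 170 and at most -0.5 in 15. The same-strand pairs had a median of 0.87, with quartiles of 0.67 and 0.95. The median was 0.55 in repeat-like and 0.39 in single-stretch pairs. These are descriptions: both probes of a pair share the array, its scaling and its RNA. Probes in more than 1 pair, 55 of 621, count repeatedly.

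Single probes of the pairs were called about as often as other probes. Each of the 44719 probes tested was fitted with limma over the 3 groups, with p-values adjusted by Benjamini-Hochberg over all of them and called under 0.05. Against 0.047% of all tested probes in model minus control, 1 of the 621 probes was called, a fall. In BHD minus model, where 3.19% of all probes were called, 16 of 621 were (2.58%), 10 higher and 6 lower. In BHD minus control, where 10.7% were called, 67 were (10.8%), 36 higher and 31 lower. At an unadjusted p under 0.05, 132, 114 and 168 of the 621 probes passed (21.3%, 18.4% and 27.1%), beside 17.6%, 17.1% and 28.0% of all probes. The comparisons share groups, so their values are not independent. Leaving out 1 array at a time gave 24 to 87 called probes in BHD minus control. Dropping control replicate 1, 2, 3 or 4 gave 40, 28, 29 or 24 calls there, and dropping BHD replicate 1, 3 or 4 gave 32, 30 or 41. In BHD minus model, dropping BHD replicate 1 or 2 gave 9 or 10 calls, dropping model replicate 1, 3 or 4 gave 10, 8 or 9, and dropping control replicate 4 gave 10. The call in model minus control was lost without control replicate 1, 3 or 4, model replicate 2, 3 or 4, or BHD replicate 3.

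With limma over the 3 groups, no pair had its probes called in opposite directions in any comparison. In model minus control this could not occur, since only 1 probe was called. In BHD minus model no pair had both probes called, so the count is informative only in BHD minus control. There, alternatives gave opposite calls in 2 pairs with normexp background correction, 1 with the replicate number as a block and 1 without model replicate 4. At an unadjusted p under 0.05 on both probes, 1, 0 and 5 pairs went in opposite directions in model minus control, BHD minus model and BHD minus control, and 26, 13 and 37 pairs in the same direction. Since 55 of the 621 probes are in more than 1 pair, probes can count repeatedly here. Same-strand pairs were not counted this way, so these counts have no reference beside them. Both probes of a pair were called in 10 of the 365 pairs in BHD minus control, 4 with both higher and 6 with both lower. This held in 0 pairs in model minus control and BHD minus model. Of the 10 pairs, 7 were single-stretch, as were 191 of all 365. In BHD minus control 10.8% of the 621 probes and 10.7% of all tested probes were called. Whether 10 pairs is more than such shares give was not tested. A further 50 pairs in BHD minus control had 1 probe called, as did 26 in BHD minus model and 1 in model minus control. In 24 of the 26 pairs in BHD minus model the partner's fitted change had the same sign, and in 2 the opposite one. In BHD minus control it was the same in 36 of the 50 and opposite in 14. The 26 pairs hold 16 called probes, so some probes count in several pairs, and 7 of the 26 were single-stretch. Over all pairs in BHD minus model, 92.2% of repeat-like and 61.3% of single-stretch pairs had the same sign. When control replicate 1, 2, 3 or 4 was dropped, the count of 10 became 4, 3, 2 or 2, and when BHD replicate 1, 3 or 4 was dropped it became 3, 2 or 6.

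By the rule for named pairs, rclstr_3501_6180_6 and rclstr_7369_489_10 carried the largest shared fall among pairs with both probes called and well above background on all 12 arrays. The first had levels of 0.92, 1.34, 0.31 and 0.11 in control, 0.17, -0.31, -0.25 and 0.11 in model, and -0.13, -0.64, -0.25 and 0.00 in BHD. The second had -1.80, -1.60, -1.76 and -1.69 in control, -2.09, -2.16, -2.10 and -1.90 in model, and -2.49, -2.66, -3.09 and -2.34 in BHD. On both strands every BHD array was below every control array, and on the second strand the model arrays lay between them. BHD minus control was -0.92 on the first strand (limma, adjusted p = 0.0394) and -0.93 on the second (limma, adjusted p = 0.00387). The strand difference moved by 0.01 ± 0.25 (SE) in that comparison. The call on the first strand was lost with only those groups in the fit and, among fits leaving out 1 array, without control replicate 1 or 2 and without each BHD replicate (highest adjusted p of these 0.0882). The second strand was called under all 18 alternatives. Its change was -0.60 after normexp background correction.

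The largest shared rise among such pairs was that of rclstr_17293_269_4 and rclstr_56980_95_7, which share 53 bases. The first had levels of 1.73, 1.60, 1.59 and 1.61 in control and 2.11, 2.07, 2.00 and 1.86 in BHD, and the second had -3.87, -3.64, -3.76 and -3.74 in control and -3.05, -2.90, -3.05 and -3.13 in BHD. Neither strand overlapped between these groups. In model the first strand had 1.90, 2.05, 2.03 and 1.58, and the second -3.30, -2.69, -2.94 and -3.40. BHD minus control was 0.38 on the brighter strand (limma, adjusted p = 0.041) and 0.72 on the dimmer one (limma, adjusted p = 0.0107). The dimmer strand's change was 0.27 after normexp background correction. The brighter strand's call was lost without each control replicate, without model replicate 1 and without BHD replicate 1, 2 or 3 (highest adjusted p 0.102).

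A change of the strand difference asks whether one strand moved against the other, and in it a constant factor of an array or a probe cancels. It was fitted with limma over 1415 overlapping rclstr pairs, the 365 antisense and the 1050 same-strand ones. In model minus control, 0.0707% of all 1415 pairs were called, which is the 1 antisense pair described next. In BHD minus model, 2.12% of all pairs were called, and 8 of the 365 antisense pairs (2.19%), 1 higher and 7 lower. In BHD minus control, 3.46% were called, and 18 antisense pairs (4.93%), 6 higher and 12 lower. Of the same-strand pairs 0%, 2.1% and 2.95% were called. The antisense shares in BHD minus model thus lay near that of all pairs. At an unadjusted p under 0.05, 58, 90 and 94 antisense pairs passed (15.9%, 24.7% and 25.8%), beside 8.67%, 12.5% and 14.3% of same-strand pairs. In 309 of the 365 pairs the difference moved by less than 0.5 in all 3 comparisons, and in 10 pairs it moved by 1 or more in at least 1 of them.

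Of the 8 calls in BHD minus model, 3 were at single-stretch pairs and 5 at repeat-like ones, which were made of few probes: 3 pairs share rclstr_59473_170_466 and 2 share rclstr_66662_40_2541. In BHD minus control 9 of the 18 were single-stretch, 5 repeat-like and 4 had an internal run. In 13 of the 18 the fitted changes of the probes had opposite signs, and in 14 of the 18 one of the probes was called on its own. In BHD minus control, dropping control replicate 1, 2, 3 or 4 gave 9, 6, 8 or 6 called pairs, dropping BHD replicate 1, 3 or 4 gave 8, 4 or 8, and dropping model replicate 3 gave 11. The 8 calls in BHD minus model became 4, 3, 2 or 4 when BHD replicate 1, 2, 3 or 4 was dropped. They became 2, 2 or 5 when model replicate 1, 3 or 4 was dropped, and 4, 3 or 3 when control replicate 1, 2 or 3 was dropped. In model minus control, dropping BHD replicate 1 or control replicate 1 gave 3 called pairs. With normexp background correction, which acts most on dim probes, 40 and 41 were called in BHD minus model and BHD minus control.

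The pair complementary over 60 bases, rclstr_40865_542_4 and rclstr_7494_456_5, changed the order of its strands. The first probe had levels of 1.05, 0.85, 0.57 and 0.62 in control, 1.46, 1.64, 1.74 and 1.24 in model, and 1.77, 1.83, 1.94 and 1.65 in BHD. The second had 1.26, 1.16, 1.20 and 1.14 in control, 1.00, 1.02, 0.89 and 0.43 in model, and 0.79, 0.98, 0.86 and 0.47 in BHD. The second strand was the brighter on all 4 control arrays and the first on all 8 others. On each strand the control arrays overlapped with neither other group.

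Their difference was -0.20, -0.32, -0.63 and -0.52 in control, 0.46, 0.62, 0.85 and 0.81 in model, and 0.98, 0.85, 1.08 and 1.18 in BHD. Model minus control was 1.10 ± 0.12 (SE, n = 4 against 4; limma, adjusted p = 0.00214), a 2.15-fold change of the ratio. BHD minus control was 1.44 ± 0.12 (SE; limma, adjusted p = 7.61e-05), and BHD minus model was 0.34 ± 0.12 (SE; limma, adjusted p = 0.172). Taken alone, the first strand was called in BHD minus control (1.02, limma, adjusted p = 0.00203) and not in model minus control (0.75, limma, adjusted p = 0.0711). The second strand's changes were -0.42 (limma, adjusted p = 0.0758) and -0.35 (limma, adjusted p = 0.226). Within groups the strands moved together, with r = 0.62. Both calls on the difference held under all 18 alternatives, with a highest adjusted p of 0.0331 in model minus control. Slide and row go with the groups and cannot be told apart from them here.

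In rclstr_11789_93_3 and rclstr_48164_661_4, which share 48 bases, BHD stood apart. The difference was 0.33, 0.46, 0.81 and 0.65 in control, 0.76, 0.16, 0.25 and 1.03 in model, and -0.71, -0.18, -0.52 and -0.49 in BHD. All 8 control and model arrays were above 0 and all 4 BHD arrays below. The first probe was at -4.21, -4.12, -3.61 and -3.90 in control, -3.60, -3.70, -3.55 and -3.78 in model, and -4.27, -4.44, -4.28 and -4.29 in BHD. The second was at -4.54, -4.58, -4.42 and -4.55 in control, -4.36, -3.86, -3.80 and -4.81 in model, and -3.55, -4.27, -3.76 and -3.80 in BHD. Both are dim probes, well above background on all 12 arrays.

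BHD minus model of that difference was -1.02 ± 0.20 (SE; limma, adjusted p = 0.0285) and BHD minus control -1.04 ± 0.20 (SE; limma, adjusted p = 0.0225). Model minus control was -0.02 ± 0.20 (SE; limma, adjusted p = 0.991). Of the single strands, the first fell in BHD minus model by 0.66 (limma, adjusted p = 0.0149). With normexp background correction the changes were -0.35 and -0.32 and were still called. The call in BHD minus model was lost with only those groups in the fit (limma, adjusted p = 0.105) and, among fits leaving out 1 array, without model replicate 1 and without BHD replicate 1, 3 or 4. Among the latter fits, the call in BHD minus control was lost without control replicate 2, 3 or 4 and without BHD replicate 1 or 3 (highest adjusted p of these 0.066).

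The 1 called rise in BHD minus model was at rclstr_51749_393_13 and rclstr_54430_205_6, which share 55 bases. The difference was 2.78, 3.01, 3.13 and 3.29 in control, 2.35, 2.34, 2.47 and 2.45 in model, and 3.42, 2.96, 2.92 and 3.07 in BHD. The model arrays lay below all others, while control and BHD overlapped. BHD minus model was 0.69 ± 0.12 (SE; limma, adjusted p = 0.0195), and model minus control was -0.65 ± 0.12 (SE; limma, adjusted p = 0.0811), not called. The rise was 0.58 and not called after quantile normalization (limma, adjusted p = 0.0564), and 0.39 and called with normexp. It was also lost in the deposited values and, among fits leaving out 1 array, without model replicate 1 or 3 (highest adjusted p of these 0.0586).

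The repeat pair of rclstr_66662_40_2541 and rclstr_54685_472_16 shares 20 bases of the B2-like run. Its difference was 4.48, 4.45, 4.45 and 4.45 in control, 4.56, 4.37, 4.52 and 4.61 in model, and 4.17, 4.05, 4.04 and 4.07 in BHD. The change was small, with BHD below both other groups without overlap. BHD minus model was -0.44 ± 0.05 (SE; limma, adjusted p = 0.0014). The dimmer probe moved, from 3.96, 4.06, 3.74 and 3.85 in model to 4.44, 4.50, 4.34 and 4.35 in BHD (0.50, limma, adjusted p = 0.00856), and the brighter one's change was 0.07 (limma, adjusted p = 0.753). This call held under all 18 alternatives.

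In BHD minus control, rclstr_44619_492_10 rose against rclstr_17887_549_20, with which it shares 58 bases. The first probe was at -0.04, -0.20, -0.17 and -0.08 in control, 0.17, 0.53, 0.66 and 0.13 in model, and 0.65, 0.43, 0.69 and 0.63 in BHD. The second was at -3.26, -3.21, -3.25 and -3.32 in control, -3.18, -3.32, -3.43 and -2.95 in model, and -3.48, -3.42, -3.80 and -3.42 in BHD. BHD and control overlapped on neither strand, and the strands went opposite ways.

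Their difference rose by 1.00 ± 0.21 (SE; limma, adjusted p = 0.0293), with 0.73 on the first strand (limma, adjusted p = 0.00553) and -0.27 on the second (limma, adjusted p = 0.148). Within groups r was -0.77, against a median of 0.44 over all pairs, so the strands opposed each other from array to array as well. Among fits leaving out 1 array, the call on the difference was lost without each control replicate and without BHD replicate 1, 3 or 4 (highest adjusted p of these 0.0835).

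The largest called fall in BHD minus control was at rclstr_48605_264_14 and rclstr_116_1975_25, which share 20 bases inside the probes. The difference was 1.19, 1.40, 1.24 and 1.56 in control, 1.49, 0.90, 0.66 and 0.24 in model, and -0.45, 0.36, 0.16 and 0.35 in BHD. Control and BHD did not overlap, and the model arrays spanned from one to the other. BHD minus control was -1.24 ± 0.25 (SE; limma, adjusted p = 0.0282), with 0.99 on the second probe (limma, adjusted p = 0.0319) and -0.25 on the first (limma, adjusted p = 0.119). Among fits leaving out 1 array, the call was lost without each control replicate and without BHD replicate 1 or 3 (highest adjusted p of these 0.0713).

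By class, the fitted change of the 173 repeat-like probes was above 0 in 23.1% of them in model minus control and in 79.8% in BHD minus model. It had a median of -0.18 in model minus control, 0.17 in BHD minus model and -0.01 in BHD minus control. Medians over all tested probes were 0.00, -0.02 and -0.03, and over the single-stretch probes 0.02, -0.01 and 0.00. The repeat-like median was -0.16 to -0.18 and 0.16 to 0.18 in the first 2 comparisons under the 4 scalings tried. In BHD minus control its sign depended on the scaling, from -0.01 to 0.02. The array medians of repeat-like probes were 4.02 to 4.26 in control, 3.82 to 4.00 in model and 3.88 to 4.43 in BHD, so BHD overlapped both groups. The first 2 comparisons share the model arrays, so their opposite shifts are not independent. Repeat-like probes are brighter than most, and probes of like level were not set beside them.

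Strands of a pair mostly had the same sign of change. In model minus control 71.2% of single-stretch and 88.7% of repeat-like pairs did, in BHD minus model 61.3% and 92.2%, and in BHD minus control 70.2% and 53.9%. Under quantile normalization the repeat-like shares were 73.1%, 79.4% and 70.9%, so they depend on the scaling. The single-stretch shares were then 69.6%, 59.7% and 69.6%. The same-strand pairs had 84.0%, 83.3% and 84.6% in the main scaling.

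A few pairs could be matched to promoter windows. No genome sequence was used here, so other places with the same letters were not looked for. Both probes of some pairs matched, over all their bases, 1 RefSeq promoter window (GRCr8). These pairs were chosen by sequence after the files were read. One lies before Nlgn1, which encodes neuroligin 1, an adhesion protein of the postsynaptic side of excitatory synapses. Nlgn1 is on the minus strand of chromosome 2, and the matched places lie upstream of the annotated start of that window:

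rclstr_5232_556_5, in the direction of Nlgn1, chr2:110930861-110930920: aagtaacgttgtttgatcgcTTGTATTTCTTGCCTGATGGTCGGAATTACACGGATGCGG
rclstr_60341_117_4, antisense to Nlgn1, chr2:110930841-110930900: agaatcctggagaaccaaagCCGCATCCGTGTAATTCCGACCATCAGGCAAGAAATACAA

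The sense-direction probe was at -0.08, 0.04, 0.22 and 0.09 in control, -0.06, -0.12, -0.17 and -0.39 in model, and -0.27, -0.20, -0.27 and -0.47 in BHD. The antisense probe was at -1.51, -1.51, -1.13 and -1.07 in control, -1.54, -1.36, -1.03 and -1.50 in model, and -1.28, -1.26, -1.23 and -1.28 in BHD. BHD lay below control without overlap on the sense-direction strand (change -0.37, limma, adjusted p = 0.033). Whether this call holds under other settings or without single arrays was not looked at. The antisense strand's groups overlapped (change 0.04, limma, adjusted p = 0.876). The difference of the strands moved by -0.41 ± 0.12 (SE; limma, adjusted p = 0.113), which was not called. Whether these probes report Nlgn1 transcripts was not tested.

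A second such pair lies before Hcfc1r1, on the plus strand of chromosome 10. Here rclstr_33801_194_9, antisense to the gene at chr10:13209751-13209810, was the brighter, and rclstr_49788_19_8, in the gene's direction at chr10:13209757-13209816, the dimmer. The difference was 2.91, 3.48, 2.85 and 2.90 in control, 3.55, 3.03, 2.75 and 2.83 in model, and 3.18, 2.94, 2.93 and 2.75 in BHD. The groups overlapped in every comparison, and no strand of this pair was called in any of them.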

How the data were processed

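Signals came from 12 one-colour scanner files. Per the labels' protocols, Trizol RNA was copied from an oligo-dT primer into Cy3-labelled cDNA. The submitters' processing notes name Agilent Feature Extraction, version 10.7.1.1. The intensity values used are the deposited processed signals, with spatial and multiplicative detrending on per the file headers. The deposited series table holds the authors' log2 values, with their normalization not given in the sources used here. It was used only as an alternative, and its columns correlated with the log2 scanner signals at 0.9995 or more. The deposited background flags and probe sequences were also used.

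Outlier spots were left out, the spots of a probe averaged on the log2 scale, and each array's 75th percentile subtracted. A probe counted as well above background on an array where the share of its remaining spots flagged so was at least 0.5, and it was tested where that held on every array of a group. Models were fitted with limma 3.58.1 in R 4.3.3 over the 12 arrays without covariates, for probes and for strand differences, and tested on simulated data. P-values then set each change against the spread between samples of a group. Samples of a group share slide and row, so that spread leaves slide and row out.

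The members and lists were chosen with earlier results of these data known. The pairs named are, per comparison, up to 2 largest called rises and falls of the strand difference, the largest shared rise and fall, and the pairs with the longest run, the largest difference and the highest level. Pairs in promoter windows were added by sequence. A rule on protein matches was not used, since no protein sequences were given.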

Additional observations from a re-analysis of the deposited data

Results flagged for a closer look

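In each named pair and group of 4 arrays, 1 array's strand difference far from the other 3 was looked for with Dixon's criterion, which chance meets in about 1 of 20 groups. Of 45 groups, 2 met it. The difference of rclstr_66662_40_2541 and rclstr_54685_472_16 was 4.48 on control replicate 1 and 4.45 on the other 3 control arrays, a gap of little size. The difference of rclstr_33801_194_9 and rclstr_49788_19_8, before Hcfc1r1, was 3.48 on control replicate 2 and 2.85 to 2.91 on the others.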

How the results depend on the processing

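Besides the main analysis, 25 alternatives were run, 1 of which, keeping only single-stretch pairs, was chosen after seeing the data. Called strand differences and shared changes of the named pairs kept their sign in the 18 alternatives looked at for them. Calls on single strands of other named pairs, among them the probe before Nlgn1, were not followed this way. The median changes by class near 0 did not always keep their sign. Model minus control had 1 called probe, a fall. It had 0 with quantile normalization, with the deposited values, with probes above background on all 12 arrays or without the filter on dim probes. It also had 0 with only the 2 groups in the fit and with the replicate number as a block. With normexp and with trended robust variance it had 1 called rise and no called fall, so the main call was lost there too. BHD minus model had 16 called probes, and 9 without the filter, 7 with at least 30 shared bases, 6 with at least 40 and 7 at single-stretch pairs. BHD minus control had 67, and 42 without the filter. For strand differences, model minus control had 1 call, and 2 with the replicate block, 2 with at least 30 shared bases, 3 with at least 40 and 3 among pairs with no other partner. BHD minus model had 8, and 40 with normexp, 14 with all 12 arrays above background, 4 without the filter, 2 with only 2 groups, 3 with trended robust variance, 1 with at least 30 bases, 0 with at least 40, 3 among pairs with no other partner and 3 at single-stretch pairs. BHD minus control had 18, and 41 with normexp, 11 without the filter, 10 with the replicate block, 7 with at least 30 bases, 3 with at least 40 and 9 at single-stretch pairs. Both probes of a pair were called in 1 pair in BHD minus model with trended robust variance, and in 5 in BHD minus control without the filter.

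The median strand difference of 2.99 was 2.36 with normexp, 3.09 with at least 30 or 40 shared bases and at single-stretch pairs, and 3.05 among pairs with no other partner. The median r of 0.44 was 0.41 with quantile normalization, 0.47 with all 12 arrays above background, 0.38 with at least 30 or 40 bases and among pairs with no other partner, and 0.39 at single-stretch pairs. Leaving out 1 array at a time gave 0 to 1, 8 to 20 and 24 to 87 called probes in the 3 comparisons, 1 to 3, 2 to 7 and 4 to 20 called strand differences, and 0, 0 to 1 and 2 to 12 pairs with both probes called. It gave median differences of 2.95 to 3.01 and median r of 0.40 to 0.49. Same-numbered arrays of model and BHD had deviations correlated at -0.141, 0.279, 0.214 and 0.241, and those of the other comparisons at -0.231 to 0.122. The numbers were therefore not taken to pair the samples, although 4 of 8 arrays in BHD minus model correlated best with their own number. The replicate block ended the calls on the strand differences of rclstr_11789_93_3 (adjusted p = 0.0653 in BHD minus model and 0.0599 in BHD minus control), rclstr_51749_393_13 (0.0547), rclstr_44619_492_10 (0.057) and rclstr_48605_264_14 (0.0738) against their partners, and on rclstr_3501_6180_6 (0.0721). Under the block, 1 pair in BHD minus control had its probes called in opposite directions, as had 2 with normexp and 1 without model replicate 4.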
